A study of Mus musculus with 2 samples.

Results

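CD8 T cells of the inflamed mouse lung were compared between 1 library of mice given lipopolysaccharide and miconazole (LPS_MCZ) and 1 library of mice given lipopolysaccharide (LPS). The cells were chosen by measured RNA. A member had at least 2 UMIs (unique molecular identifiers, 1 per captured transcript) of the T cell genes Cd3e, Cd3d, Cd3g and Trac together, and at least 1 UMI of the coreceptor genes Cd8a and Cd8b1 together. It had no UMI of Cd4, of the B cell gene Cd79a, of the endothelial gene Cdh5 or of the NK cell gene Ncr1, and at most 5% of its UMIs came from the neutrophil genes S100a8 and S100a9. Cells were first kept at 200 or more genes, 500 or more UMIs and at most 20% mitochondrial UMIs. The rule found 78 of 8314 kept cells in the LPS_MCZ library and 140 of 12076 in the LPS library, 218 of 20390 in all.

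Both groups were male ICR mice, an outbred stock, aged 6 to 8 weeks, and both received lipopolysaccharide (LPS), a bacterial cell wall lipid that inflames the lung. LPS_MCZ mice also had an intraperitoneal injection of miconazole (MCZ), an azole antifungal drug, at 0.2 mg/kg per the sample label and 1 mg/kg per the protocol text. LPS mice had LPS and no listed drug. The left lower lobes of all mice of a group were pooled, digested with enzymes and made into 1 droplet library with 10x Genomics 3′ chemistry. For the number of mice, the LPS dose and the times the sources used here give nothing. Every member therefore comes from a pool with no map to mice, there is no replicate, and the drug and the library cannot be told apart. No test between groups is possible, and brackets below hold 95% intervals that cover counting error only.

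CD8 T cells recognise peptides held by MHC class I molecules, through a T cell receptor and the CD8 coreceptor. Naive CD8 T cells circulate through blood and lymphoid tissue with homing receptors such as Ccr7, and are kept in that state by factors such as Lef1 and Tcf7. Once activated they divide and become effector or memory cells, which store granzymes and perforin, release the chemokine Ccl5 and the cytokine interferon gamma, and enter inflamed tissue such as the lung. Interferons induce a shared set of antiviral genes in T cells as in most other cells.

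The members had a median of 8837 UMIs and 2829 genes in LPS_MCZ lungs and 7792 UMIs and 2521 genes in LPS lungs, with summed totals of 774942 and 1320797 UMIs. The least deep member had 4015 UMIs in the LPS_MCZ library and 2425 in the LPS library. The libraries shared 243 cell barcodes, and 0 members of either library carried a shared one. The choosing genes are given as a description. The median member had 13 UMIs of the T cell genes and 3 of the CD8 genes in the LPS_MCZ library, and 11 and 3 in the LPS library. Both CD8 chains were detected in 45 LPS_MCZ members and 81 LPS members, the beta chain gene Cd8b1 alone in 23 and 43, and the alpha chain gene Cd8a alone in 10 and 16. At the edge of the rule, 11 LPS_MCZ and 34 LPS members had exactly 1 CD8 UMI, and 1 member of each library had exactly 2 T cell UMIs. Just outside it, 3 LPS_MCZ and 10 LPS cells failed with 1 T cell UMI, 6 and 12 on neutrophil RNA, 3 and 12 on Cd4, and 2 and 5 on Cd79a, Cdh5 or Ncr1.

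T cell receptor genes that the rule did not use were seen in most members, though they do not bear on the CD8 part of the label. Trbc2, a constant segment of the T cell receptor beta chain, had UMIs in 76 of 78 LPS_MCZ members and 136 of 140 LPS members. Cd247, the receptor's zeta chain, had UMIs in 74 and 123. Some genes of other lineages were at or near 0 and others were not. The B cell gene Ms4a1 and the NK cell genes Klra8, Klra9 and Klri2 had 0 UMIs in the members of either library, as had the dendritic cell genes Xcr1, Flt3 and Clec9a and the macrophage genes C1qa and C1qb. Klrb1c, the NK1.1 antigen gene, had 0 UMIs in LPS_MCZ members and 1 in LPS members, and the gamma delta receptor gene Trdc had 8 and 3. RNA of myeloid and airway cells was present: the myeloid gene Lyz2 had 70 UMIs in 21 LPS_MCZ members and 182 in 45 LPS members, and the adaptor gene Tyrobp had 84 and 159. The macrophage receptor gene Mrc1 had 44 and 2 UMIs, Lpl had 109 and 3, and the airway secretory gene Scgb1a1 had 123 and 51. Of the 109 Lpl UMIs 1 LPS_MCZ cell held 106. Free RNA was present in the droplets: neutrophil genes that T cells do not make stood in the members at a median of 5.00% of their library-wide level in LPS_MCZ lungs and 4.78% in LPS lungs. A gene is called open to free RNA below where that background would supply at least 25% of its level in either library.

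CD8 T cells were rare in both lungs, and stood in a different proportion to CD4 T cells. They made up 0.938% [0.742, 1.17] of kept cells in the LPS_MCZ library and 1.16% [0.976, 1.37] in the LPS library, intervals that overlap. CD4 T cells, chosen in the same way with Cd4 UMIs and no CD8 UMI, numbered 91 in the LPS_MCZ library and 292 in the LPS library. CD8 T cells were thus 46.2% [38.5, 54.0] of 169 CD8 or CD4 T cells in LPS_MCZ lungs and 32.4% [28.0, 37.0] of 432 in LPS lungs. The 2 intervals do not overlap, but they leave out the spread between mice, which was not measured. Cells with T cell genes and neither coreceptor were more numerous than the members, at 144 in the LPS_MCZ library and 354 in the LPS library. Over all cells with T cell genes that passed the other limits, CD8 T cells were 24.7% [20.0, 29.8] of 316 and 17.5% [15.0, 20.4] of 798.

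**Figure D1:**
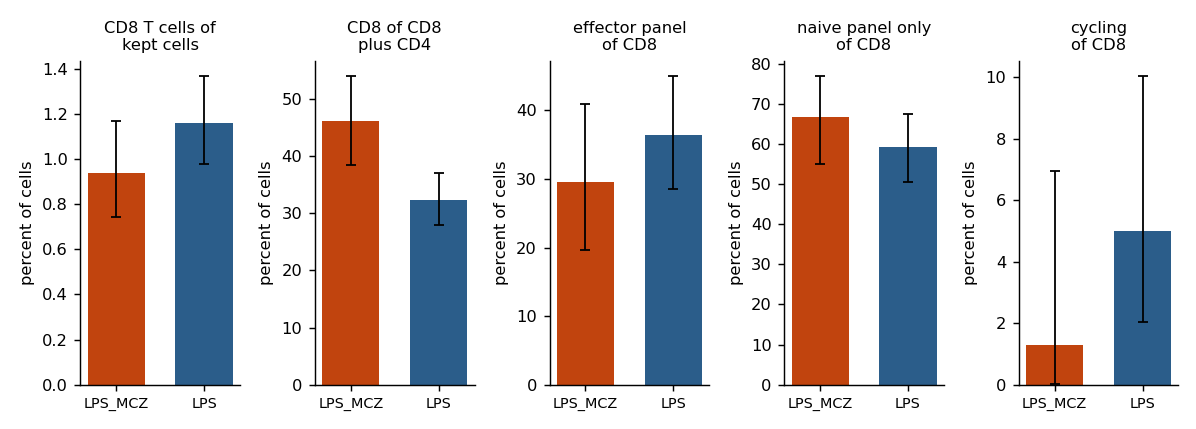
Shares of cells in percent, each panel on its own axis from 0, with LPS_MCZ left of LPS and 95% Clopper-Pearson intervals as bars. The panels show CD8 T cells among kept cells (0.938% and 1.16%), CD8 T cells among CD8 and CD4 T cells (46.2% and 32.4%), and the effector, naive and cycling cells among CD8 T cells at 2000 UMIs per cell (cycling cells at full depth). Only in the second panel do the intervals not overlap.

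The RNA of the members was dominated by the same abundant genes in both libraries. Malat1, a nuclear noncoding RNA, was the most abundant gene that is neither ribosomal nor mitochondrial by summed UMIs, with 9941 UMIs in LPS_MCZ members and 15646 in LPS members. Gm42418, a gene model that overlaps ribosomal RNA, and Tpt1, a translation-associated protein gene, came next, followed by Tmsb4x, Eef1a1, Fau, Actb, H2-D1, Tmsb10 and Fth1. For each gene the UMIs of all members of a library were summed and divided by their total, giving CPM (UMIs scaled to one common total for both libraries), and the log2 ratio of LPS_MCZ over LPS was taken with 1 CPM added. Over 5616 genes with at least 50 UMIs in both libraries together, the middle log2 ratio was -0.04, and their SD was 0.51. A gene is called higher or lower at a ratio of 2-fold or more: 61 genes (1.09%) were higher and 122 (2.17%) lower in LPS_MCZ members. Few cells decide many of these ratios. Without the cell richest in each gene in each library, 35 genes were higher and 144 lower, of which 29 and 106 were among those first called. Without the cycling cells described below, 62 of 5154 genes tested were lower.

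Genes of cytotoxic effector cells were lower in LPS_MCZ members. Of 17 listed genes for cytotoxic proteins and cytokines 14 had enough UMIs, and 7 of them were lower by 2-fold and 1 higher, against 2.17% and 1.09% of all genes. Their median log2 ratio was -1.28. Ccl5, a chemokine that attracts T cells and monocytes, had 730 UMIs in LPS_MCZ members and 3842 in LPS members, or 942 CPM [875, 1013] and 2909 CPM [2818, 3002]. Its log2 ratio was -1.63 [-1.74, -1.51], and it lay between -1.58 and -1.87 under every alternative tried. Gzma, the gene of granzyme A, a granule protease, had 270 UMIs in LPS_MCZ members and 1807 in LPS members, a log2 ratio of -1.97 [-2.16, -1.79]. The granule protease gene Gzmk had 9 UMIs in LPS_MCZ members and 84 in LPS members, and the log2 ratio was -2.36 [-3.63, -1.46].

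These levels came from few cells. Gzma was seen in 19 of 78 LPS_MCZ members and 53 of 140 LPS members, and in the cells with a UMI it ran from 0.645 to 71.2 per 10000 UMIs with a median of 2.10 in LPS_MCZ lungs, and from 0.548 to 150.1 with a median of 7.13 in LPS lungs. The 5 richest cells held 88.1% of the Gzma UMIs of LPS_MCZ members and 65.2% of those of LPS members. For Ccl5 the 5 richest cells held 62.2% and 33.0%. The LPS_MCZ range lies within that of the LPS members, which reaches higher. Most members of either library had no Gzma UMI, and the libraries differ in how many cells were rich and in how rich they were. The single-cell plot shows this for Ccl5, Gzma and Gzmb. The richest LPS_MCZ cell held 160 of the 270 Gzma UMIs of its library. Leaving out the richest cell of each library, the log2 ratio of Gzma was -2.82.

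Gzmb, the gene of granzyme B, which starts cell death in the target cell, had 236 UMIs in LPS_MCZ members and 1276 in LPS members, a log2 ratio of -1.66 [-1.87, -1.46]. Without the cycling cells this ratio was -0.46, and with every cell thinned to 2000 UMIs it was -0.80. The ratio of Gzma did not move with the cycling cells, though these held many of its LPS UMIs. Of the 1807, 2 LPS cells with 39 and 53 UMIs of Top2a, a gene of dividing cells, held 473 and 448. With 160 of the 270 LPS_MCZ UMIs in 1 cell, the unmoved ratio rests on few cells in both libraries. Serpinb6b, a granzyme inhibitor of cytotoxic cells, had 30 UMIs in LPS_MCZ members and 198 in LPS members, a log2 ratio of -1.93 [-2.56, -1.39] that was -0.79 after thinning. Fasl, the ligand of the death receptor Fas, had 12 UMIs in LPS_MCZ members and 85 in LPS members (-1.99 [-3.06, -1.18]). Perforin, the pore-forming protein encoded by Prf1, differed less, with 29 UMIs in LPS_MCZ members and 84 in LPS members (-0.75 [-1.43, -0.14]). Nkg7, a granule protein of cytotoxic lymphocytes, had 284 UMIs in LPS_MCZ members and 754 in LPS members (-0.64 [-0.84, -0.44]).

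Ifng, the gene of interferon gamma, had 1 UMI in 1 of 78 LPS_MCZ members and 77 UMIs in 15 of 140 LPS members. Its level was 1.29 CPM [0.0327, 7.19] in LPS_MCZ members and 58.3 CPM [46.0, 72.9] in LPS members, with a log2 interval of -10.82 to -2.98. Free RNA alone would supply 42.7% of the LPS_MCZ level and 1.97% of the LPS level. In the LPS library 5 cells held 72.7% of the Ifng UMIs. Tnf, the gene of tumour necrosis factor, was the gene of this list that was higher, with 68 UMIs in LPS_MCZ members and 49 in LPS members (1.22 [0.69, 1.80]). It was open to free RNA, which would supply 31.3% and 48.9% of those levels.

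**Figure D2:**
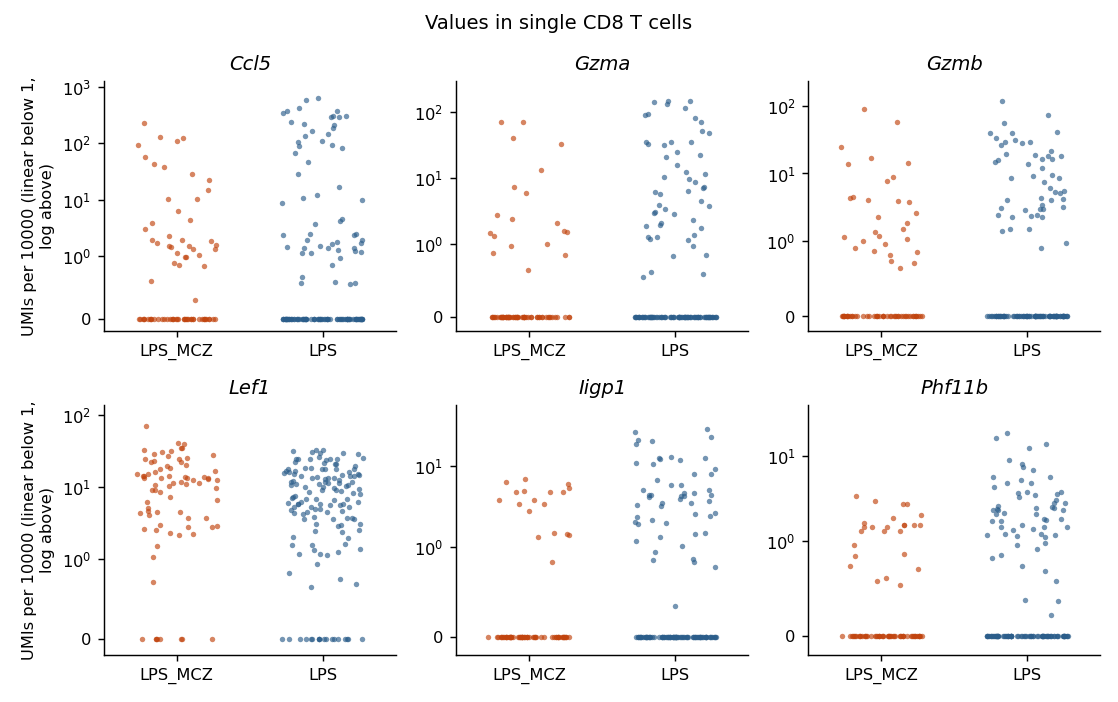
Values of 6 genes in single CD8 T cells as UMIs per 10000 UMIs of the cell, on an axis that is linear below 1 and logarithmic above. Each point is 1 of 78 LPS_MCZ cells (left) or 140 LPS cells (right), spread sideways to be seen. Gzma reached 71.2 in LPS_MCZ cells and 150.1 in LPS cells, and cells without a UMI made up most of both libraries for Ccl5, Gzma, Gzmb, Iigp1 and Phf11b, while Lef1 was seen in most cells of both.

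Genes of effector and memory cells were lower as a group, with receptors of tissue entry among them. Of 25 listed genes 21 had enough UMIs, all 21 had a log2 ratio below 0 (55.6% of all genes tested did), and 5 (23.8%) were lower by 2-fold, against 2.17% of all genes. The median was -0.55. Cx3cr1, a chemokine receptor of effector cells, had 7 UMIs in LPS_MCZ members and 49 in LPS members (-1.93 [-3.43, -0.89]). The transcription factor Eomes had 9 UMIs in LPS_MCZ members and 45 in LPS members (-1.48 [-2.77, -0.50]). Tbx21, the related factor T-bet, differed less, at 57 and 143 UMIs (-0.55 [-1.03, -0.11]). Lgals1, a galectin of activated T cells, had 145 UMIs in LPS_MCZ members and 724 in LPS members (-1.55 [-1.82, -1.29]), and the ratio was -0.86 without the cycling cells. S100a4, which is open to free RNA, was also called lower. Cd44, Ly6c2, Ly6a and Ctsw, which mark memory or activated CD8 T cells, were at -0.09 or nearer to 0.

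Among chemokine and egress receptors 3 of 11 were lower by 2-fold, against 2.17% of all genes. They include Cx3cr1 and Ccr2, the receptor for monocyte-attracting chemokines, which had 26 UMIs in LPS_MCZ members and 119 in LPS members (-1.40 [-2.10, -0.80]). The receptors of lymphoid homing and exit pointed the other way: Ccr7 had 363 UMIs in LPS_MCZ members and 535 in LPS members (0.21 [0.01, 0.40]), and S1pr1, which guides exit from lymph nodes, had 208 and 280 (0.34). The residence-associated receptor Cxcr6 did not differ, with 37 and 63 UMIs (0.00). The list of tissue residence genes had a median of -0.07 with 0 of 9 called, with Cd69 at -0.47 and Ahr at 0.95.

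Naive and central memory genes were higher as a group, by less than 2-fold. Of 19 listed genes 18 had enough UMIs, 17 had a log2 ratio above 0 and the median was 0.32, but only 1 (5.56%) passed 2-fold. That gene was Dapl1, which is abundant in naive CD8 T cells, with 48 UMIs in 17 LPS_MCZ members and 28 UMIs in 14 LPS members (1.50 [0.85, 2.27]). Lef1 had 939 UMIs in LPS_MCZ members and 1067 in LPS members, or 1212 CPM [1135, 1292] and 807.8 CPM [760, 858], a log2 ratio of 0.58 [0.46, 0.71]. It was seen in 70 of 78 LPS_MCZ members and 122 of 140 LPS members. At 2000 UMIs per cell it was seen in 73.1% [61.8, 82.5] of LPS_MCZ members and 64.3% [55.8, 72.2] of LPS members, intervals that overlap. Il7r, the receptor for the survival cytokine interleukin 7, had 591 UMIs in LPS_MCZ members and 652 in LPS members (0.63 [0.46, 0.79]). With every cell thinned to 2000 UMIs, which gives each cell equal weight, Lef1 was at 0.42 and Dapl1 at 1.77, while Actn1, Nsg2 and Tdrp, at 0.79, 0.73 and 0.72 in the summed cells, were at -0.04, -0.15 and -0.15.

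**Figure D3:**
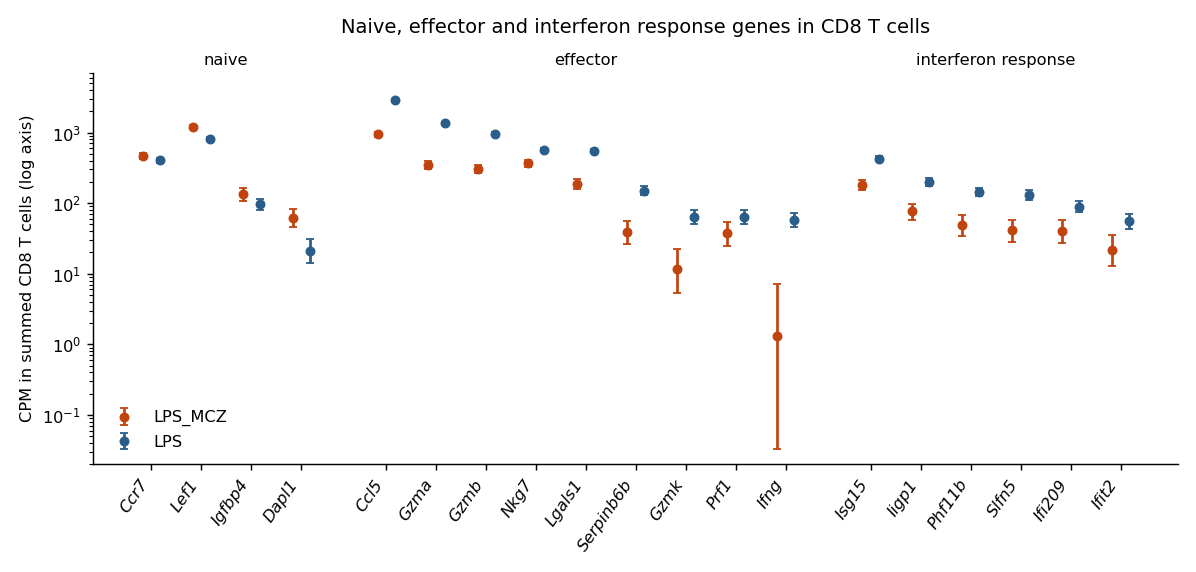
Levels of 19 genes in the summed CD8 T cells in CPM on a logarithmic axis, LPS_MCZ left of LPS for each gene, with exact Poisson 95% intervals as bars. The 9 effector genes and the 6 interferon response genes lie lower in LPS_MCZ cells, and Lef1 and Dapl1 among the 4 naive genes lie higher (1212 against 807.8 CPM and 61.9 against 21.2 CPM).

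The members were also classed by 2 short panels after thinning each cell to 2000 UMIs. A cell carried the effector panel at 2 or more UMIs of Nkg7, Gzma, Gzmb, Gzmk, Cxcr3, Cxcr6 and Klrg1. It counted as naive only at 1 or more UMIs of 5 naive cell genes, among them Ccr7, Lef1, Dapl1 and Igfbp4, and at most 1 effector UMI. Effector cells were 23 of 78 in LPS_MCZ lungs, 29.5% [19.7, 40.9], and 51 of 140 in LPS lungs, 36.4% [28.5, 45.0]. Naive only cells were 52 of 78, 66.7% [55.1, 76.9], and 83 of 140, 59.3% [50.7, 67.5]. The intervals overlap in both classes, and a difference in these shares was not detectable with this number of cells. The class is a range with many cells at its edge, since 24 LPS_MCZ and 23 LPS members had exactly 1 effector UMI, and 11 and 10 had exactly 2. At full depth the order turned round, with effector cells at 78.2% of LPS_MCZ members and 60.0% of LPS members.

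Levels within the classes are a description, since Gzma and Gzmb helped define the effector class and its cells were not alike in the libraries: 11 of 23 LPS_MCZ and 10 of 51 LPS effector cells sat at the limit of 2 UMIs, and 6 of 7 cycling LPS cells, described below, carried the panel at full depth. How far levels and numbers of effector cells each enter the summed values cannot be told apart. In the effector class Gzma stood at 1030 CPM in LPS_MCZ cells and 3038 CPM in LPS cells (-1.56 [-1.76, -1.37]), and Gzmb at 844.9 CPM and 2108 CPM (-1.32 [-1.54, -1.11]). Ccl5, which is not in the panel, stood at 1879 CPM in LPS_MCZ effector cells and 6489 CPM in LPS effector cells (-1.79 [-1.93, -1.65]). In naive only cells Ccl5 was low in both and higher in LPS_MCZ cells, at 347.3 CPM from 171 UMIs and 90.8 CPM from 59 UMIs. Some genes outside the panels also differed between the classes in both libraries. Lgals1 was higher in effector than in naive only cells by a log2 ratio of 3.55 in the LPS_MCZ library and 4.30 in the LPS library. Few cells carry this gene, as the 5 richest members held 80.0% and 70.7% of its UMIs. Il7r was lower in effector cells by a log2 ratio of -1.06 and -1.14. The median of the cytotoxic list, which holds genes of the panel, was -1.32 over 13 genes in effector cells and -0.21 over 6 genes in naive only cells, beside medians over all genes of -0.10 and -0.01.

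The share of cells with a UMI added little at equal depth, because free RNA and low counts limit it. At 2000 UMIs per cell Gzmb was seen in 17.9% [10.2, 28.3] of LPS_MCZ members and 29.3% [21.9, 37.6] of LPS members, against 1.06% and 2.73% of erythroid cells, which should lack it. Unthinned, the shares were 38.5% and 37.1%. Gzmk was seen in 1.28% [0.0325, 6.94] and 9.29% [5.04, 15.4] of members after thinning, against 0 erythroid cells. Ccl5 was seen in 28.2% of LPS_MCZ members and 29.3% of LPS members, against 11.7% and 27.3% of erythroid cells. In members with a Ccl5 UMI at full depth it reached 228.6 per 10000 UMIs in LPS_MCZ lungs and 637.6 in LPS lungs. How much of these shares is background was not tested, and they are not read as a difference. Erythroid cells had medians of 6091 and 7002 UMIs before thinning, against 8837 and 7792 in the members.

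Cycling cells were 1 of 78 LPS_MCZ members, 1.28% [0.0325, 6.94], and 7 of 140 LPS members, 5.00% [2.03, 10.0], counting cells with at least 5 UMIs over 9 cell cycle genes. The intervals overlap. The summed levels differed far more than the number of cells. Top2a, the topoisomerase of dividing cells, had 8 UMIs in LPS_MCZ members and 228 in LPS members (-3.94 [-5.29, -3.06]). The histone gene Hist1h1b had 0 UMIs in LPS_MCZ members and 142 in LPS members, so it was at least 27.8-fold lower against a floor of 3 UMIs over the summed LPS_MCZ members. Pclaf, a replication clamp partner, had 5 and 127 UMIs (-3.70). Of 11 proliferation genes with enough UMIs 6 (54.5%) were lower by 2-fold, against 2.17% of all genes, and the median was -1.60. In the LPS library 5 cells held 88.2% of the Top2a UMIs. Of the cycling cells 1 of 1 LPS_MCZ cell and 6 of 7 LPS cells carried the effector panel at full depth, so the cycling and effector differences rest in part on the same LPS cells. Without the cycling cells Hmgb2, a chromatin protein of dividing and effector cells, was at -0.27, against -1.60 with them.

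Interferon response genes were lower as a group, by less than 2-fold for most. Of 58 listed genes 50 had enough UMIs, 49 of them had a log2 ratio below 0 against 55.6% of all genes, and 9 (18.0%) were lower by 2-fold against 2.17%. The median was -0.41. Leaving out 6 genes open to free RNA, the median was -0.34, with 43 of 44 below 0 and 5 lower by 2-fold. Those 5 were Phf11b, Iigp1, Ifit2, Ifi209 and Dhx58. Iigp1, an interferon-inducible GTPase that acts on intracellular pathogens, had 59 UMIs in 18 LPS_MCZ members and 265 UMIs in 54 LPS members, or 76.1 CPM [58.0, 98.2] and 200.6 CPM [177, 226]. Its log2 ratio was -1.39 [-1.83, -0.99]. Phf11b, an interferon-inducible PHD finger gene, had 38 UMIs in 25 LPS_MCZ members and 190 UMIs in 62 LPS members (-1.53 [-2.10, -1.04]). In cells with a Phf11b UMI it ran from 0.539 to 3.36 per 10000 UMIs in LPS_MCZ members and from 0.221 to 18.7 in LPS members. The ranges overlap, and that of the LPS members reaches higher.

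Ifit2, an antiviral protein gene with tetratricopeptide repeats, had 17 UMIs in LPS_MCZ members and 73 in LPS members (-1.29 [-2.19, -0.56]). Ifi209, of the DNA-sensing Ifi200 family, had 31 and 118 UMIs (-1.14 [-1.78, -0.58]). The other 4 genes called lower, Slfn5, Isg15, Isg20 and Rsad2, were open to free RNA, which for Isg15 would supply 52.8% of the LPS_MCZ level and 28.3% of the LPS level. After thinning, Isg15 was seen in 30.8% of LPS_MCZ members and 36.4% of LPS members, below its shares of 60.6% and 68.2% in erythroid cells. How much of the members' share is background was not tested, and it is not read as a difference. With at least 2 CD8 UMIs required, the list had 41 of 49 genes below 0 and 5 called lower, Iigp1 was at -0.66 and Ifi209 at -0.81. Of the transducer genes of the response, Stat2 was at -0.11 and Irf9 at 0.29 [-0.17, 0.75], the single gene of the list above 0. The receptor genes Ifnar1, Ifngr1 and Ifngr2 were at -0.01, 0.16 and 0.05.

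Interferon medians were below those of all genes in both classes, and a difference between the classes was not tested. In naive only cells 43 of 47 genes were below 0 with a median of -0.50, against a median over all genes of -0.01 with 1834 of 3597 below 0. In effector cells 30 of 39 were below 0 with a median of -0.41, against a median over all genes of -0.10 with 1754 of 3023 below 0. Iigp1 stood at 113.7 CPM in LPS_MCZ and 300.0 CPM in LPS naive only cells, and at 12.1 CPM and 92.6 CPM in effector cells. In the other lymphocytes of the same libraries the list's median was -0.54 over 54 genes in CD4 T cells (where 2.08% of all genes were higher and 1.19% lower by 2-fold), -0.70 over 50 in B cells and 0.02 over 44 in NK cells. These values share the libraries, and whether CD8 T cells differ from the others was not tested.

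Promoter sequence is shown for the interferon genes because these share a known element, the interferon-stimulated response element, found before many interferon-induced genes. The letters GAAA, then any 2 bases, then GAAA again, or TTTC spaced in the same way for the other strand, were searched in windows from 250 bases before to 50 after each gene start, in RefSeq promoters of the GRCm38.p6 build. They were found for 1079 of 27025 genes of the table (3.99%) and for 212 of 4519 genes tested in the members (4.69%). Of the 50 tested interferon genes only 38 had a window, and 22 of these had a match (57.9%). Genes open to free RNA were left out, and matched letters are in capitals. The 3 genes with a match and the lowest log2 ratios are printed 5′ to 3′. They are Phf11b (chr14:59341281-59341580, minus strand, -1.53), Ifit1 (chr19:34640639-34640938, plus strand, -0.97) and Ifit3 (chr19:34583279-34583578, plus strand, -0.92).
Phf11b: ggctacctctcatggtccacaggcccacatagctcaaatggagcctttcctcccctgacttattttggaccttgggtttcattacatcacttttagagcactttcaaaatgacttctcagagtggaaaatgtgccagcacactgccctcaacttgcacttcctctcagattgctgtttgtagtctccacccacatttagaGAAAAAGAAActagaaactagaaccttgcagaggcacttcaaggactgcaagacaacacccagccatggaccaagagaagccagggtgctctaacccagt
Ifit1: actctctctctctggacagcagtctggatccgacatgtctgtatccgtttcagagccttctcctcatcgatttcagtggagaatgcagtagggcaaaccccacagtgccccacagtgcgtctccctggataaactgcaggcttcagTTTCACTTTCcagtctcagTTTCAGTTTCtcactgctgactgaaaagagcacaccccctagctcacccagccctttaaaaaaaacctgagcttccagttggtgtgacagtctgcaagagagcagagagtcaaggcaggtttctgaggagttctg
Ifit3: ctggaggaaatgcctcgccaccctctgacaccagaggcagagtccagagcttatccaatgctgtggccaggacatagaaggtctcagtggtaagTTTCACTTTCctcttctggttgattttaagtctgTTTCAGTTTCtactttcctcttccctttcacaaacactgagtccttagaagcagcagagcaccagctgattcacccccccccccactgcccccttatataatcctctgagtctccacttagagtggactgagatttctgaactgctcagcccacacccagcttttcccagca
Phf11b had 1 match, which began 50 bases before the gene start, and Ifit1 and Ifit3 had 2 each, the first at 104 and 156 bases before the start. Ifit2 (-1.29) and Ifi209 (-1.14) had 0 matches in their windows. Of the 5 interferon genes called lower and not open to free RNA, 3 had a window and 1 had a match. Ifit1 and Ifit3 fell short of 2-fold. A match is a description of the letters and not evidence of binding.

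**Figure D4:**
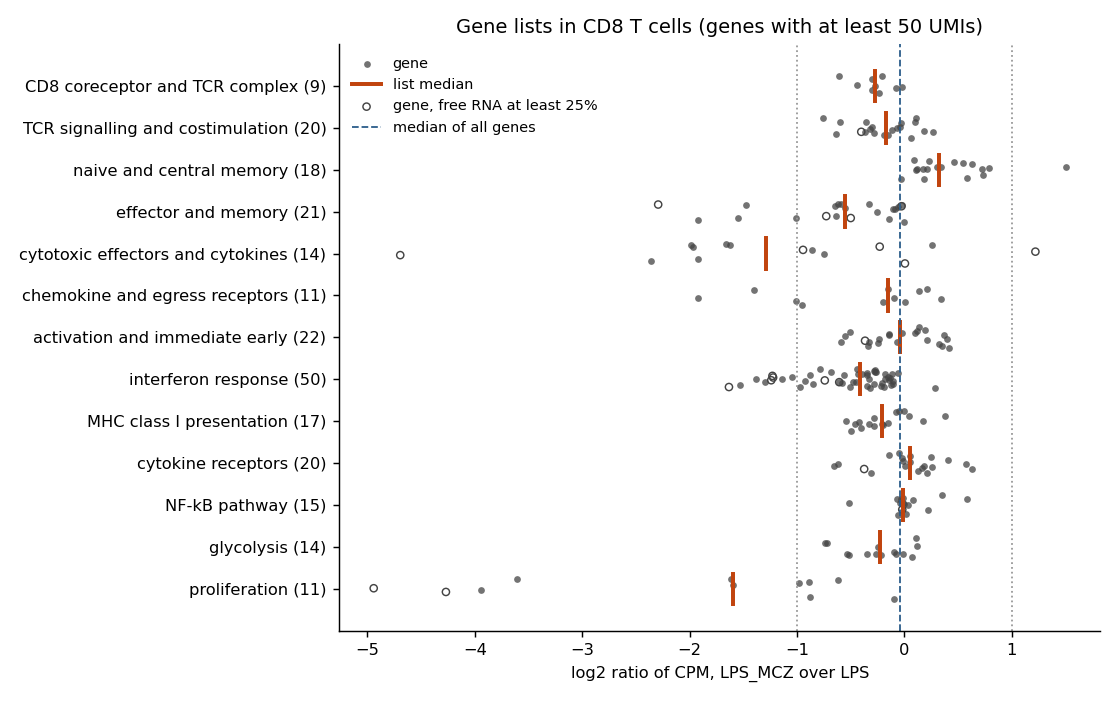
Log2 ratios of CPM, LPS_MCZ over LPS, for the genes of 13 lists in CD8 T cells, with the number of genes tested beside each name. Points are genes (open circles are open to free RNA), red bars are list medians, the dashed line is the median of all 5616 genes (-0.04) and the dotted lines mark 2-fold. The cytotoxic (-1.28), proliferation (-1.60), effector (-0.55) and interferon (-0.41) medians lie to the left, and the naive median (0.32) to the right.

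The receptor and its signalling differed little. All 9 genes of the CD8 and T cell receptor complex lay below 0 with a median of -0.27 and 0 passed 2-fold, but 6 of them were used to choose the cells. Cd247, Trbc1 and Trbc2, which were not used, were at -0.03, -0.08 and -0.44. Among 20 genes of receptor signalling and costimulation 0 were called and the median was -0.17. The lowest was Themis, a signalling protein of T cell development, with 218 UMIs in LPS_MCZ members and 628 in LPS members (-0.76 [-0.99, -0.53]), and the highest was the phosphatase Ptpn22 (0.27). Immediate early genes, which respond to receptor signals and also to tissue digestion, had 0 of 22 called and a median of -0.04, with Nr4a1 at 0.42 [0.13, 0.70] and the phosphatase Dusp2 at -0.56 [-0.85, -0.27]. Of 12 checkpoint and exhaustion genes only 4 had enough UMIs, and 0 were called. Ctla4 had 132 UMIs in LPS_MCZ members and 152 in LPS members (0.56 [0.22, 0.91]), Tox was at 0.25 and Pdcd1 at -0.38.

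The other lists had few or no genes called. MHC class I presentation had a median of -0.21 over 17 genes and 0 called, with the immunoproteasome subunit Psmb9 lowest (-0.55 [-0.90, -0.21]) and the peptide trimming enzyme Erap1 highest (0.38 [-0.09, 0.85]). Cytokine receptors had a median of 0.05 over 20 genes, the NF-kB pathway -0.01 over 15, heat shock genes -0.13 over 13, and glycolysis -0.23 over 14, each with 0 called. Cytokine feedback and survival genes were at -0.09 over 17, and integrins and adhesion genes at -0.25 over 11, also with 0 called. Among glycolytic enzymes Gapdh had 285 UMIs in LPS_MCZ members and 802 in LPS members (-0.72 [-0.92, -0.53]). Fatty acid oxidation had 2 of 12 lower by 2-fold, against 2.17% of all genes. They were the dehydrogenases Acadl (8 and 51 UMIs) and Etfdh (21 and 73 UMIs), and the list's median was -0.16.

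Sterol genes were too sparse to say much. Azole drugs bind CYP51, the lanosterol demethylase, in fungi, and mammals have the enzyme too. Only 5 of 23 sterol synthesis and uptake genes had enough UMIs, 0 were called, and the median was 0.29. Cyp51 had 33 UMIs in 16 LPS_MCZ members and 40 UMIs in 23 LPS members (0.48 [-0.22, 1.19]). Hmgcs1, which encodes an early enzyme of the pathway, was at 0.45 [-0.34, 1.26]. Both intervals include 0. Among 6 LXR target and lipid export genes Smpdl3a was lower, with 15 and 69 UMIs (-1.39 [-2.34, -0.61]). The cholesterol exporter Abcg1 was at 0.86 [0.37, 1.39] and at 0.01 without the richest cell.

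Several of the ratios above 2-fold were library-wide or came from single cells. Gm42418, Cmss1, Gphn and Lars2 were higher in LPS_MCZ members by log2 ratios of 1.33, 1.50, 1.23 and 1.05, and over all barcodes of the libraries by 1.17, 0.94, 1.08 and 0.93. Gm19951 was at 1.11 in the members and 0.91 over all barcodes. BC018473 had 0 UMIs in LPS_MCZ members and 169 in LPS members, at least 33.1-fold lower against a floor of 3 UMIs, and over all barcodes it was at 3.33 CPM in the LPS_MCZ library and 913.5 CPM in the LPS library. Il17a, the gene of interleukin 17A, had 279 UMIs in 2 LPS_MCZ members and 18 UMIs in 1 LPS member. The cell with 253 of them also had 119 UMIs of Il17f and 13 of Zbtb16, a factor of innate-like T cells, and no UMI of Trdc. Plcb1 had 100 of its 105 LPS_MCZ UMIs in 1 cell, and without the richest cells its log2 ratio was -0.70. Slc49a4, a transporter gene, was seen in 43 of 78 LPS_MCZ members and 47 of 140 LPS members (1.06 [0.66, 1.48]).

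RNA of other lineages was not even between the libraries. The 7 erythroid and platelet genes summed to 1309 UMIs in LPS_MCZ members and 5766 in LPS members, of which 1 LPS cell held 4797. Of 4 such genes with enough UMIs 4 were lower by 2-fold, and without the 2 LPS_MCZ and 4 LPS members rich in haemoglobin or myeloid RNA Hbb-bt and Hba-a1 were at 0.55 and 0.25. The 15 neutrophil genes summed to 5190 CPM and 4983 CPM, and the 15 myeloid and dendritic genes to 245.2 CPM and 258.2 CPM. The 12 NK genes summed to 653.0 CPM and 1672 CPM. Gzma, which CD8 effector cells also make, supplied 270 of the 506 UMIs in LPS_MCZ members and 1807 of the 2208 in LPS members. Their part in the effector and interferon differences was not tested beyond the ratios given without such cells.

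Set against CD4 T cells of the same library, the members were marked by cytotoxic and NK-type receptor genes in both libraries. Over 6824 genes 83 (1.22%) were higher and 212 (3.11%) lower by 2-fold in both libraries. Cells were chosen by Cd4 and CD8 UMIs, so these values are a description and come with no test. Klrd1, the CD94 chain of an inhibitory receptor, had 86.5 CPM in CD8 T cells and 1.21 CPM in CD4 T cells of LPS_MCZ lungs, and 133.3 and 2.22 CPM in LPS lungs. Its partner chain Klrc1 (NKG2A) had 32.3 and 1.21 CPM in LPS_MCZ lungs, and 49.2 and 1.78 CPM in LPS lungs. Nkg7 had 366.5 and 8.49 CPM in LPS_MCZ lungs, and 570.9 and 28.0 CPM in LPS lungs. Gzma, Eomes, Ctsw, Klrc2, Chsy1, Klra1 and the gene model Gm44174 completed the 10 highest. Klrd1, Klrc1 and Klrc2 lie close together on chromosome 6, where Klrd1 spans 129591782 to 129598775 in the GRCm38 annotation.

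The 10 lowest against CD4 T cells included genes of helper and regulatory T cells. Tnfrsf4, the costimulatory receptor OX40, had 7.74 CPM in CD8 T cells and 226.9 CPM in CD4 T cells of LPS_MCZ lungs, and 3.03 and 190.3 CPM in LPS lungs. Foxp3, the factor of regulatory T cells, had 1.29 and 80.1 CPM in LPS_MCZ lungs, and 7.57 and 74.7 CPM in LPS lungs. The transcription factor Maf had 38.7 and 377.4 CPM in LPS_MCZ lungs, and 33.3 and 340.1 CPM in LPS lungs. Tnfrsf19, Itgb8, Tox2, Myo3b, St8sia6, Serpina3g and Hal were the others.

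Set against NK cells, the members had T cell genes at higher levels and lacked several NK receptor genes. NK cells were chosen with Ncr1 UMIs and without UMIs of the T cell and CD8 genes, and the members without Ncr1 UMIs. These values therefore depend on the choice of cells, are a description and come with no test. Over 6559 genes 320 (4.88%) were higher and 661 (10.1%) lower by 2-fold in both libraries. Themis had 281.3 CPM in CD8 T cells and 0 in NK cells of LPS_MCZ lungs, and 475.5 and 0 CPM in LPS lungs. Dpp4 (CD26) had 126.5 and 0 CPM in LPS_MCZ lungs, and 131.7 and 0 CPM in LPS lungs. Igfbp4 had 132.9 and 2.47 CPM in LPS_MCZ lungs, and 96.2 and 0.662 CPM in LPS lungs. Actn2, Gm44174, Gm8369, Ubash3a, St6gal1, Hdgfl3 and BE692007 were the other genes of the 10 highest. Klri2, Klra8 and Klra9 were at 0 in the members of both libraries and at 366.6, 219.7 and 132.1 CPM in LPS_MCZ NK cells. Klrb1b, Klrb1c, Klrb1a, Adamts14, Aoah, Cma1 and Ctsk followed. Gzma, by contrast, was far higher in NK cells, at 348.4 CPM in CD8 T cells and 10227 CPM in NK cells of LPS_MCZ lungs, and 1368 and 9687 CPM in LPS lungs. The log2 ratios of LPS_MCZ over LPS were -1.97 for Gzma and -1.63 for Ccl5 in CD8 T cells, and 0.08 and 0.02 in NK cells. The difference between those ratios was not tested.

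**Figure D5:**
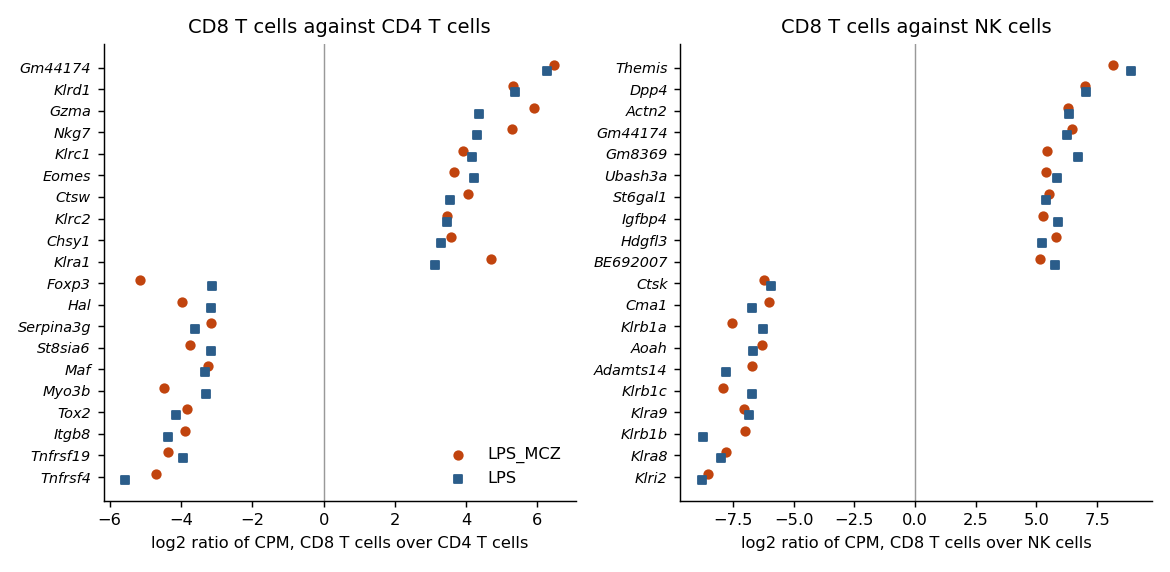
Log2 ratios of CPM, CD8 T cells over CD4 T cells (left) and over NK cells (right), for the 10 highest and 10 lowest genes of each comparison, with LPS_MCZ as circles and LPS as squares. Genes at 0 in one population have a ratio that depends on the 1 CPM added. All genes shown have the same sign in both libraries, which the choice of genes requires.

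Variable segments of the T cell receptor were captured in few cells, as 3′ libraries seldom reach them. Alpha chain segments (Trav) had UMIs in 23 LPS_MCZ members, over 18 segments, and in 32 LPS members, over 20 segments. The most often seen was Trav16n, in 4 LPS_MCZ members and 8 LPS members. Beta chain segments (Trbv) had UMIs in 10 LPS_MCZ members, over 9 segments, and in 24 LPS members, over 11 segments, with Trbv12-2 the most often seen, in 4 and 5. At this capture neither a shared clone nor its absence can be read.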

How the data were processed

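Left lower lung lobes were profiled in 2 droplet libraries, 1 per group, each pooling all mice of its group per the labels. Values are UMI counts, unnormalized, as deposited by the authors; Cell Ranger 7.0.0 wrote the matrices, per the file headers. The submitters' processing notes name bcl2fastq 2.20 and mm10. Not given in the sources used here are intron counting and filters after cell calling. The libraries held 8500 (LPS_MCZ) and 12577 (LPS) barcodes and 68467793 and 90597705 UMIs.

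Cells and members were chosen by the limits in the report. The rule bars cells with RNA of B, endothelial and NK cells and of much neutrophil RNA; no doublet caller was run, so doublets with other cells remain possible. Members and gene lists were chosen with earlier results of these data known. UMIs were summed over members and scaled by their total, and log2 ratios used a pseudocount of 1 CPM and genes with at least 50 UMIs. With 1 library per group there is no p-value; a gene is called at 2-fold, and intervals are exact Poisson, conditional binomial or Clopper-Pearson intervals at 95%, of the ratio without the pseudocount, for counting error only. PCR copies are collapsed by UMI, but cells of a pool are not replicates. Expected free RNA was the library level over all barcodes times the median, over neutrophil genes, of the members' level over the library level. Thinning drew 2000 UMIs per cell without replacement, and left out 0 members.

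Named genes were the rule's genes, the strongest ratios and any member needed to account for a list, the 10 highest and 10 lowest ratios at 100 or more UMIs not open to free RNA, the 10 highest and 10 lowest against CD4 T cells and NK cells, and the 10 most abundant. Some genes that these rules or lists hold are not reported here. Coordinates are from GENCODE annotation of GRCm38, the assembly of mm10, and promoters from RefSeq. Calculations used Python 3.11.15, numpy 2.4.6, scipy 1.17.1 and pandas 2.3.3, were tested on simulated data, and used edgeR 4.0.16 for TMM factors only, in R 4.3.3. Alternatives changed the cell and CD8 limits, the UMI minimum, the pseudocount, the scaling, the depth and free RNA, or left out cycling cells, cells with RNA of other lineages or each gene's richest cell, the last 3 chosen after seeing the data.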

Additional observations from a re-analysis of the deposited data

Results flagged for a closer look

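Genes measured with at least 50 UMIs in both CD8 and CD4 T cells numbered 5490, and 11 of them passed 2-fold in opposite directions in the 2 cell types. The difference between the cell types was not tested, since each has 1 library per group, and the values that follow are log2 ratios of LPS_MCZ over LPS in CD8 T cells and then in CD4 T cells.

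The naive cell gene Dapl1 was at 1.50 in CD8 T cells and -1.04 in CD4 T cells, with 48 UMIs in LPS_MCZ and 28 in LPS CD8 T cells. Ccr2 was at -1.40 and 1.01, the endoplasmic reticulum chaperone partner Sdf2l1 at -1.52 and 1.26, the clathrin adaptor gene Hip1 at -1.17 and 1.08, the autophagy protease Atg4a at 1.80 and -1.14, and the histone gene Hist1h2ap at -1.92 and 1.51. Without the richest CD8 T cell of each library these 6 were at 1.40, -1.97, -1.33, -1.51, 2.03 and -1.98.

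Il17a was at 4.63 and -6.80, Il17f at 3.33 and -5.01 and Il22 at 4.25 and -6.06, from 279, 119 and 81 UMIs in LPS_MCZ CD8 T cells and 18, 19 and 6 in LPS CD8 T cells. Without the richest cells Il17a was at 5.14, Il17f at -0.82 and Il22 at 0, so the higher values of Il17f and Il22 rest on 1 LPS_MCZ cell each. The 5.14 of Il17a rests on 26 UMIs in 1 LPS_MCZ cell, since the only LPS cell with Il17a was left out. In CD4 T cells Il17a was at 0 CPM in LPS_MCZ lungs and 110.7 CPM in LPS lungs. After thinning it was seen in only 0.694% of LPS CD4 T cells, so its -6.80 also rests on few detected cells. Fn1 was at -2.51 and 1.78 and Vcan at -1.03 and 1.09. Both are genes of myeloid and stromal cells, and whether RNA of such cells plays a part was not tested.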

How the results depend on the processing

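No paired analysis was possible because each group has 1 library. Of 86 values set beside a comparison's result, 64 kept within the stated error and 22 moved; the cause was not tested, except where fewer cells or UMIs make it plain. Requiring at least 2 CD8 UMIs gave CD8 T cell shares of 0.88% of kept cells and 26.6% of CD4 and CD8 T cells in LPS lungs. Without thinning the naive only share was 21.8% in LPS_MCZ and 40.0% in LPS members and the effector share 78.2% and 60.0%, and at 1000 UMIs per cell the effector share was 19.2% and 27.9%. The number of genes tested also changed with the setting, from 5616 in the main one. Genes higher by 2-fold numbered 219 of 8191 with at least 20 UMIs and 25 of 3524 with at least 100. They numbered 14 of 1477 in thinned cells and 35 of 5616 without each gene's richest cell. Genes lower by 2-fold numbered 336, 47 and 31 under the first 3 of these settings and 62 of 5154 without cycling cells. The interferon median was -0.33 with at least 2 CD8 UMIs, -0.35 with Cd8b1 required, -0.35 with at least 100 UMIs, -0.46 in thinned cells, -0.49 without cycling cells and -0.48 without the richest cells, and it was below 0 under every alternative tried. TMM and other scalings moved the median of all genes by less than 0.1. Among 150 single genes thinning moved the most, 65, and leaving out cycling cells moved 27. Il17f was at -0.90 with Cd8b1 required and -0.82 without its richest cell, while Il22 was at a log2 ratio of 0 under those same 2 settings; Plcb1 was at -0.70 without its richest cell and Ddhd1 at -0.0021 without cells holding RNA of other lineages. Birc5 was at 1.22 without cycling cells. Hbb-bt was at 0.55 and 0.26, and Hba-a1 at 0.25 and 0.12, without cells holding RNA of other lineages and without the richest cell.

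Limits are 1 library of pooled mice per group, which gives no replicate, and 78 and 140 members, where 1 rich cell can set a gene's ratio. Genes under 50 UMIs were not read.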

Other observations

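One gene outside the lists shows how far a single cell can carry a ratio in these data, and was named after its values were seen. Palld, an actin-associated protein gene, had 88 UMIs in LPS_MCZ members and 0 in LPS members, and 87 of the 88 were in 1 cell.

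Some members passed the limits of both panels, and how many did so moved with depth. At 1000 UMIs per cell they were 7 LPS_MCZ and 13 LPS members, and without thinning 55 and 73. Whether such cells are in both states was not tested. At 2000 UMIs per cell, 17 LPS_MCZ members and 32 LPS members carried both the effector and the naive panel, and 3 and 6 carried neither.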
